A study of Mus musculus with 12 samples.

Results

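Rab genes encode the small GTPases that label membranes inside a cell. They were described here across 4 RNA preparations of mouse cortex. The members were the protein-coding genes whose symbol is Rab followed by a number and at most a letter, leaving out genes for Rab-interacting proteins, and 59 of the 29879 genes in the count files met this rule. The mice were of the SNAP25 bacTRAP line, aged postnatal day 21 in every group, and no source used here gives their sex or background strain. In a bacTRAP line a tagged ribosomal protein is made from a transgene, here under control of Snap25, a gene of neurons, so that the mRNA on the ribosomes of those cells can be pulled down (translating ribosome affinity purification, TRAP). SynapTRAP is the pull-down from the synaptic fraction, a band collected from a sucrose/Percoll gradient, SNF is that band before the pull-down, TRAP is the pull-down from whole cortex, and WCH is the whole cortex homogenate. Each group held 3 libraries. The labels do not state that the libraries of a group are from different animals. The p-values therefore measure only the spread between these samples, which may be technical.

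A Rab protein switches between a GTP-bound form, which sits on a membrane and recruits effectors, and a GDP-bound form, which a carrier protein takes back into the cytosol. Exchange factors load GTP and GTPase-activating proteins end the active state, so each Rab marks a compartment for a limited time. Rab1 and Rab2 act between the endoplasmic reticulum and the Golgi, Rab6 at the Golgi, Rab5 on early endosomes, Rab4 and Rab11 in recycling, Rab7 on late endosomes, and Rab3 and Rab27 on vesicles that release their content at the cell surface. In neurons Rab3 proteins sit on synaptic vesicles, where they bind the effectors rabphilin and RIM.

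The libraries held 8938193 to 10084335 gene counts in SynapTRAP, 11637339 to 14335089 in SNF, 4368881 to 6503955 in TRAP and 7650524 to 9567146 in WCH. Genes of the mitochondrial genome took 20.4% to 63.3%, 82.2% to 87.3%, 0.93% to 5.43% and 33.6% to 50.9% of these counts in the same order, which left SNF with 1819853 to 2111322 other counts. Summed over 12 markers, neuron genes stood at 6273 to 8521 CPM (the usual count normalised to library size, scaled as in the test) in SynapTRAP, 8051 to 8846 in SNF, 9334 to 13744 in TRAP and 9614 to 10424 in WCH. Summed over 10 markers each, astrocyte genes stood at 8969.6 to 15430, 13107 to 18208, 572 to 1333 and 2158 to 2717 CPM in this order of groups, and oligodendrocyte genes at 8680 to 21551, 7015 to 9278, 512 to 7077 and 2569.7 to 3320.1 CPM. Microglia genes (10 markers) stood at 158 to 337, 256 to 536, 18.4 to 47.7 and 71.2 to 83.6 CPM. No marker on these lists was at 0 in all libraries. SynapTRAP replicate 3 stood apart from replicates 1 and 2, with 63.3% mitochondrial counts and the highest oligodendrocyte sum. TRAP replicate 3 had the highest oligodendrocyte sum of its group, and TRAP replicate 2 the highest share of reads counted for no gene, 58.3%.

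Several of the results below set close paralogues against each other, so the stretch that encodes the GTP-binding loop of the encoded proteins is shown for them. Each is 60 bases of coding sequence from GENCODE M21 (GRCm38), 5′ to 3′ on the gene's own strand, in lower case, with capitals where a base differs from the first sequence of its set. The Rab3 stretches lie in 1 exon each, at chr8:70755928-70755987, + strand for Rab3a, chr4:108890380-108890439, + strand for Rab3b, chr13:110260575-110260634, - strand for Rab3c and chr9:21915801-21915860, - strand for Rab3d.
Rab3a: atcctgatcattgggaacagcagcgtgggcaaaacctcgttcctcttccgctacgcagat
Rab3b: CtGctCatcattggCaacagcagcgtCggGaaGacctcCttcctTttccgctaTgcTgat
Rab3c: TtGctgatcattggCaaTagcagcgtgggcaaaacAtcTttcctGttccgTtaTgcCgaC
Rab3d: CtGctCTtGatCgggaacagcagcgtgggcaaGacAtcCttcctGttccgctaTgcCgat
The Rab4 stretches lie at chr8:123823828-123823887, + strand for Rab4a and chr7:27176165-27176224, - strand for Rab4b. The Rab1 stretches, which an intron splits, lie at chr11:20215646-20218815, + strand for Rab1a and chr19:5104926-5105234, - strand for Rab1b.
Rab4a: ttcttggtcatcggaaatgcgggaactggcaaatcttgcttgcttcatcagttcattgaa
Rab4b: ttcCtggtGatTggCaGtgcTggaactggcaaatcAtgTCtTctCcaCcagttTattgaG
Rab1a: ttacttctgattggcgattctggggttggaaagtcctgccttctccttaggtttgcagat
Rab1b: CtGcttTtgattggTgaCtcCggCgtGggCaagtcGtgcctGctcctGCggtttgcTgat
The stretches of Rab22a (chr2:173660127-173661476, + strand) and Rab31 (chr17:65722043-65772520, - strand) are also split by an intron.
Rab22a: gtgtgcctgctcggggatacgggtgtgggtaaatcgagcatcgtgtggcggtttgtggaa
Rab31: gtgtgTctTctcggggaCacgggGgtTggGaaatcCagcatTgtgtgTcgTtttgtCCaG
Even in this conserved stretch the paralogues differed from the first of their set at 11 to 14 of 60 bases. The longest run of identical coding bases was 29 between Rab3a and any other Rab3 gene, 33 between Rab3b and Rab3d, 38 between Rab1a and Rab1b, 23 between Rab4a and Rab4b and 11 between Rab22a and Rab31, all under the 50 bases used to look for shared windows.

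Copies elsewhere in the genome and genes on the other strand do limit some members. Of the 50-base windows of the main transcript, 14.5% in Rab7 also occurred in its pseudogene Rab7-ps1, 13.0% in Rab5b, 9.75% in Rab11b and 7.87% in Rab9 occurred in other genes. A gene on the other strand covered 66.4% of the exon bases of Rab24 (Prelid1) and 22.0% of those of Rab6a (Mrpl48). For Rab7 (Gm5577) the share was 9.45%, for Rab5a (Pp2d1) 9.34%, for Rab2b (Tox4) 6.71% and for Rab20 (E230013L22Rik) 25.6%. No source used here gives the strand setting of the counts, so the values of these genes, Rab24 above all, are uncertain.

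Of the 59 members, 52 passed the filter on low counts and were tested. The 7 that did not were Rab17, Rab19, Rab20, Rab25, Rab38, Rab42 and Rab44, with at most 34 counts over all 12 libraries (Rab38), and Rab17 had none. Summed over all members, Rab genes stood at 2756 ± 379.5 CPM in SynapTRAP, 2424 ± 229 CPM in SNF, 3406 ± 82.5 CPM in TRAP and 3566 ± 38.3 CPM in WCH (SD, n = 3 each). Both preparations of the band were lower in every library than both preparations of the cortex. Rab6b alone made up 37.5% ± 6.92, 31.7% ± 0.60, 31.1% ± 6.10 and 29.5% ± 0.71 of these sums in the same order. Without Rab6b the sums were 1707 ± 63.9 CPM in SynapTRAP, 1654 ± 142 CPM in SNF, 2344 ± 153 CPM in TRAP and 2515 ± 33.0 CPM in WCH. The size of these differences depends on the scaling. Of the counts outside the mitochondrial genome, Rab genes held 0.44% to 0.593% in SynapTRAP and 0.394% to 0.511% in SNF. They held 0.677% to 0.863% in TRAP and 0.873% to 0.9% in WCH, and the gap between SNF and WCH was wider than in CPM. In bulk RNA, fewer cells of a type and less RNA per cell cannot be told apart.

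**Figure D1:**
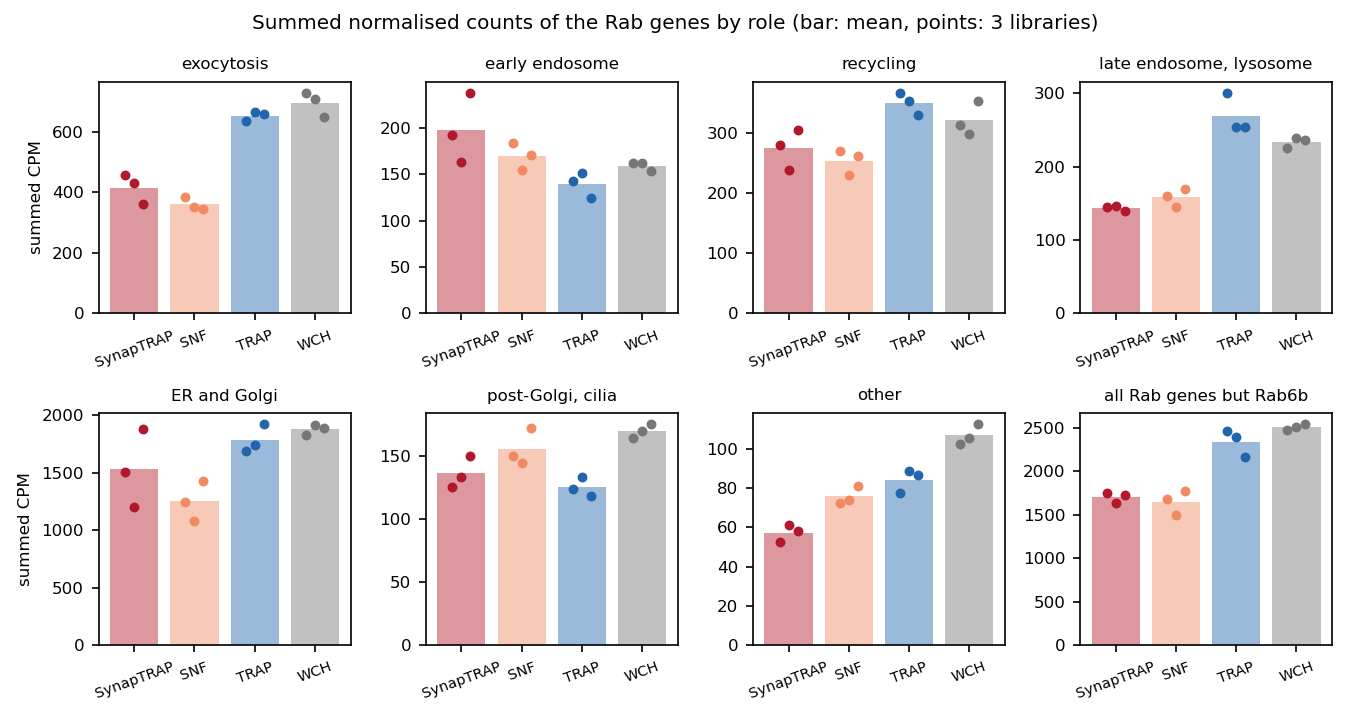
Summed normalised counts (CPM, y axis) of the Rab genes of each role in SynapTRAP, SNF, TRAP and WCH, with bars for the mean and points for the 3 libraries. For the exocytosis genes the SynapTRAP libraries sit at 360 to 455 CPM and the SNF libraries at 344 to 385 CPM, all below the TRAP and WCH libraries, and the sum of the early endosome genes is lowest in TRAP.

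Levels of different genes were compared per kilobase of exon. In WCH the order was led by Rab6b, at 209 CPM per kb (range over the 3 libraries 204 to 215), followed by Rab6a at 93.5 (86.5 to 103), Rab2a at 76.3 (70.2 to 81.7) and Rab3a at 67.4 (64.7 to 71.9). Rab6b and Rab6a did not overlap with the gene that followed them, while Rab2a and Rab3a overlapped. Rab7 (43.1, range 41.5 to 44.3) stood clear of Rab1a (38.8, range 37.0 to 41.1) by a small gap, and Rab1a overlapped with Rab3c (37.8, range 34.2 to 39.6). In SynapTRAP Rab6b was again first, at 209 CPM per kb, and the next places went to Rab3a at 59.5, Rab2a at 45.7, Rab6a at 40.4, Rab7 at 30.0, Rab5c at 27.4 and Rab1a at 27.2. Rab3a ranged there over 32.7 to 76.9 CPM per kb, and in SynapTRAP replicate 3 it lay below Rab2a (range 45.002 to 46.9) and Rab6a (range 36.7 to 42.6). Rab3c held the tenth place in SynapTRAP, at 18.9 CPM per kb.

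Rab3a (GRCm38, chr8:70754679-70758677, + strand), the main Rab of synaptic vesicles, had 171, 153 and 72.7 CPM in SynapTRAP, 101, 110.1 and 68.6 CPM in SNF, 299, 302 and 296 CPM in TRAP, and 160.1, 144 and 146 CPM in WCH. The TRAP libraries were above all 9 others and close to each other, the SNF libraries lay below all WCH libraries, and SynapTRAP replicate 3 lay far below the other SynapTRAP libraries. TRAP exceeded WCH (edgeR adjusted p = 0.0102 for a log2 fold change of 0.99 ± 0.26 SE), SNF was below WCH (edgeR adjusted p = 0.0454 for a log2 fold change of -0.69 ± 0.27 SE), and SynapTRAP was below TRAP (edgeR adjusted p = 0.00145 for a log2 fold change of -1.17 ± 0.27 SE). Rab3b (chr4:108879063-108943324, + strand), a paralogue of narrower expression in the brain, had 39.9, 36.7 and 18.1 CPM in SynapTRAP, 26.8, 29.3 and 24.3 CPM in SNF, 61.9, 58.2 and 88.2 CPM in TRAP, and 43.4, 36.9 and 41.1 CPM in WCH. TRAP was again above every other library and SynapTRAP replicate 3 was again low. TRAP exceeded WCH (edgeR adjusted p = 0.0309 for a log2 fold change of 0.78 ± 0.25 SE) and SynapTRAP was below TRAP (edgeR adjusted p = 0.00146 for a log2 fold change of -1.13 ± 0.26 SE). Rab3c (chr13:110054187-110280996, - strand), also a vesicle Rab, had 219, 221 and 243 CPM in SynapTRAP, 231, 190.1 and 226 CPM in SNF, 234, 258 and 236 CPM in TRAP, and 477, 476 and 413 CPM in WCH. Here WCH stood alone at the top and the 3 purified preparations lay together, so that TRAP was below WCH (edgeR adjusted p = 0.00405 for a log2 fold change of -0.91 ± 0.21 SE) and SNF was below WCH (edgeR adjusted p = 0.000387 for a log2 fold change of -1.08 ± 0.21 SE), and SynapTRAP against TRAP gave a log2 fold change of -0.09.

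Within a library the ratio of both paralogues is free of any scaling. The log2 ratio of Rab3a over Rab3c was -0.36, -0.53 and -1.74 in SynapTRAP, -1.20, -0.79 and -1.72 in SNF, 0.35, 0.23 and 0.32 in TRAP and -1.58, -1.73 and -1.50 in WCH. Rab3a thus had more counts than Rab3c in every TRAP library and fewer in every other library. TRAP and WCH were each tight on this measure, at 0.30 ± 0.07 in TRAP and -1.60 ± 0.12 in WCH (SD, n = 3), and SynapTRAP was wide, at -0.88 ± 0.76.

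Rab27b (chr18:69979131-70141605, - strand), which acts with Rab3 in the docking of secretory vesicles, had 6.10, 9.11 and 10.9 CPM in SynapTRAP, 14.1, 11.4 and 15.1 CPM in SNF, 12.8, 18.3 and 8.74 CPM in TRAP, and 24.5, 30.3 and 32.3 CPM in WCH. All WCH libraries were above all others, TRAP was below WCH (edgeR adjusted p = 0.00601 for a log2 fold change of -1.13 ± 0.27 SE), and SNF was below WCH (edgeR adjusted p = 0.00505 for a log2 fold change of -1.10 ± 0.29 SE). Rab26 (chr17:24527241-24534210, - strand), a Rab of secretory granules and synaptic vesicles, had 7.86, 4.70 and 10.5 CPM in SynapTRAP, 7.19, 4.79 and 6.08 CPM in SNF, 20.7, 17.4 and 22.8 CPM in TRAP, and 15.3, 11.8 and 11.8 CPM in WCH. The 6 libraries of the band lay below the 6 of the cortex, both in SNF against WCH (edgeR adjusted p = 0.00784 for a log2 fold change of -1.11 ± 0.31 SE) and in SynapTRAP against TRAP (edgeR adjusted p = 0.000498 for a log2 fold change of -1.42 ± 0.28 SE). TRAP lay above WCH in all libraries, at a log2 fold change of 0.64 that did not pass (edgeR adjusted p = 0.0942). In the authors' deposited table of 275 candidates for translation in the soma, Rab26 was the 1 Rab gene, with a log2 fold change by TRAP of 0.69 and by column of -1.01, where the table does not state the direction of either. Rab3d, Rab27a and Rab37 ranged over 0.487 to 6.26 CPM and passed in no comparison.

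**Figure D2:**
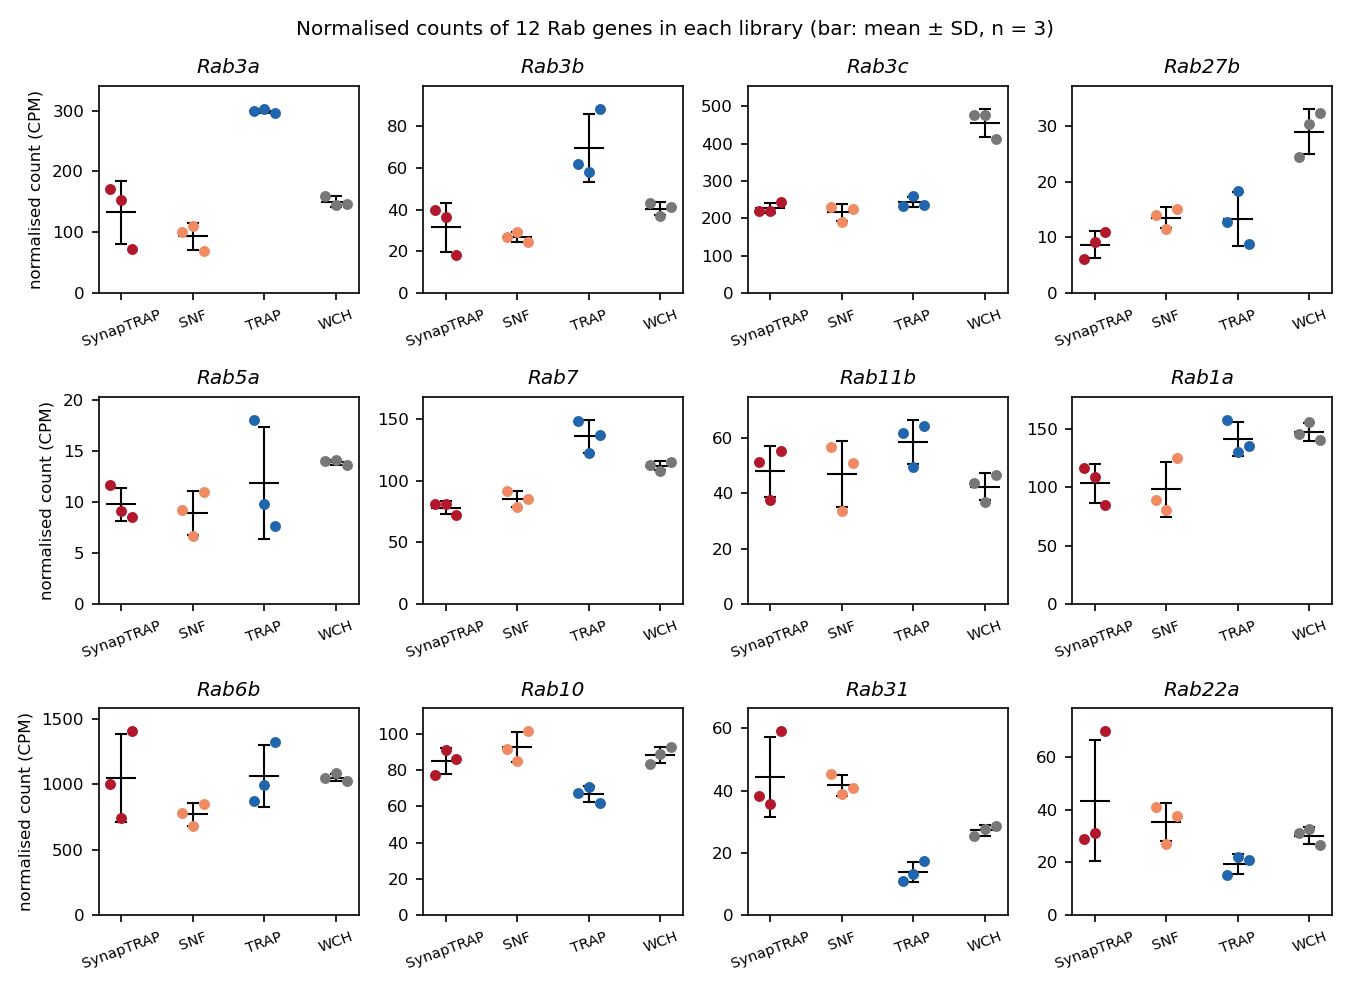
Normalised counts (CPM, y axis) of 12 Rab genes in the libraries of SynapTRAP, SNF, TRAP and WCH, with a point for each library and bars for mean ± SD (n = 3). Rab3a sits at 296 to 302 CPM in TRAP and at no more than 171 CPM elsewhere, Rab3c is highest in WCH, and Rab31 is lowest in TRAP.

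Rab31 (chr17:65651729-65772752, - strand), a relative of Rab22a on endosomes and the trans-Golgi, had 38.2, 35.6 and 59.1 CPM in SynapTRAP, 45.2, 38.8 and 40.9 CPM in SNF, 10.9, 13.1 and 17.3 CPM in TRAP, and 25.2, 27.6 and 28.7 CPM in WCH. The TRAP libraries were the lowest, the WCH libraries lay between, and the 6 libraries of the band were the highest, with no overlap between these 3 tiers. TRAP was below WCH (edgeR adjusted p = 0.00609 for a log2 fold change of -0.98 ± 0.24 SE), SNF was above WCH (edgeR adjusted p = 0.0467 for a log2 fold change of 0.61 ± 0.24 SE), and SynapTRAP was above TRAP (edgeR adjusted p = 1.87e-05 for a log2 fold change of 1.68 ± 0.24 SE). The last of these differences was larger than the one between SNF and WCH by 1.07 ± 0.34 SE, which did not pass as a difference of effects (edgeR adjusted p = 0.107). As for Rab31, the astrocyte and microglia sums given above were higher in every band library than in every WCH library and lowest in TRAP. The same held for the sum of 5 oligodendrocyte precursor markers. Sums of the oligodendrocyte, endothelial, mural and fibroblast markers were also higher in every band library than in every WCH library. In these 4 lists the TRAP and WCH ranges overlapped. The part of any of these cell types in the result was not tested. Rab22a (chr2:173659760-173707343, + strand), which sorts cargo at early endosomes, had 28.9, 31.3 and 69.9 CPM in SynapTRAP, 41.1, 27.1 and 37.7 CPM in SNF, 15.1, 22.1 and 20.8 CPM in TRAP, and 31.3, 32.6 and 26.7 CPM in WCH. SynapTRAP replicate 3 stood far above the other SynapTRAP libraries, and all SynapTRAP libraries were above all TRAP libraries (edgeR adjusted p = 0.00308 for a log2 fold change of 1.16 ± 0.29 SE). Without that library the log2 fold change was 0.64 and still passed. Rab5a (chr17:53479234-53507680, + strand), the Rab of early endosome fusion, had 11.6, 9.11 and 8.55 CPM in SynapTRAP, 9.21, 6.65 and 10.9 CPM in SNF, 18.01, 9.78 and 7.62 CPM in TRAP, and 13.97, 14.1 and 13.6 CPM in WCH. TRAP replicate 1 was apart from the rest of its group, the SNF libraries lay below the WCH libraries at a log2 fold change of -0.63, and no comparison passed. Rab5b and Rab21 passed in none either. Rab5c, the best represented Rab5 gene, had 66.97, 58.1 and 55.1 CPM in SynapTRAP, 46.6, 46.01 and 38.2 CPM in SNF, 56.3, 60.4 and 52.6 CPM in TRAP, and 43.9, 39.4 and 31.8 CPM in WCH. Its TRAP libraries lay above its WCH libraries, but the log2 fold change of 0.56 between TRAP and WCH had an edgeR adjusted p of 0.0552. It was called with relative log expression scaling (0.58), DESeq2 (0.58) and a fit of both groups alone (0.59).

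Rab4a (chr8:123805985-123835287, + strand), a Rab of rapid recycling from early endosomes, had 15.2, 16.6 and 16.5 CPM in SynapTRAP, 14.96, 19.4 and 14.8 CPM in SNF, 30.4, 42.2 and 32.1 CPM in TRAP, and 17.4, 18.2 and 19.6 CPM in WCH. The TRAP libraries lay above the other 9, in TRAP against WCH (edgeR adjusted p = 0.00521 for a log2 fold change of 0.92 ± 0.22 SE) and in SynapTRAP against TRAP (edgeR adjusted p = 0.000483 for a log2 fold change of -1.12 ± 0.22 SE). Rab4b (chr7:27168424-27178896, - strand), its paralogue, had 28.5, 25.95 and 17.1 CPM in SynapTRAP, 21.01, 23.9 and 10.9 CPM in SNF, 36.5, 29.4 and 32.5 CPM in TRAP, and 17.2, 16.5 and 16.8 CPM in WCH. TRAP exceeded WCH without overlap (edgeR adjusted p = 0.011 for a log2 fold change of 0.96 ± 0.26 SE), and SynapTRAP against TRAP gave a log2 fold change of -0.45 that did not pass. In the authors' deposited table of 3508 genes enriched in SNF, Rab4b was listed with a log2 fold change of 0.54 and a false discovery rate of 0.0724, and Rab31 with 0.74 and 0.00797. The fit used here gave 0.14 for Rab4b in SNF against WCH, which did not pass (edgeR adjusted p = 0.701). Rab11b (chr17:33742484-33760530, - strand), a Rab of slow recycling endosomes, had 51.3, 37.5 and 55.1 CPM in SynapTRAP, 56.7, 33.5 and 50.8 CPM in SNF, 61.7, 49.6 and 64.5 CPM in TRAP, and 43.7, 36.9 and 46.5 CPM in WCH. Its libraries overlapped between SynapTRAP, SNF and WCH, the TRAP libraries lay above all WCH libraries, and no comparison passed. Rab11a, its paralogue, had 33.4, 37.4 and 32.7 CPM in SynapTRAP, 31.4, 28.5 and 36.2 CPM in SNF, 61.2, 47.7 and 42.8 CPM in TRAP, and 53.96, 59.1 and 74.4 CPM in WCH. For Rab11a all WCH libraries lay above all SNF libraries (edgeR adjusted p = 0.00177 for a log2 fold change of -0.96 ± 0.22 SE). The log2 ratio of Rab11b over Rab11a was 0.46 ± 0.40 in SynapTRAP and 0.53 ± 0.31 in SNF (SD, n = 3 each). It was 0.22 ± 0.32 in TRAP and -0.55 ± 0.22 in WCH. WCH was thus the 1 group with more counts for Rab11a than for Rab11b in every library. The exons of Rab11b are longer (6130 bases, against 2992 for Rab11a). Per kilobase of exon Rab11a had the higher mean in every group. In SynapTRAP it was 11.5 CPM for Rab11a and 7.83 for Rab11b, and in WCH 20.9 and 6.91. Rab14, Rab15 and Rab35, which also act in recycling, ranged over 9.84 to 126 CPM.

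Rab7 (chr6:87999106-88045270, - strand), which carries late endosomes to lysosomes, had 81.1, 81.6 and 71.95 CPM in SynapTRAP, 92.1, 78.7 and 85.1 CPM in SNF, 149, 122 and 137 CPM in TRAP, and 113, 108 and 116 CPM in WCH. The band libraries lay below the cortex libraries and TRAP lay above WCH. SynapTRAP was below TRAP (edgeR adjusted p = 0.00284 for a log2 fold change of -0.80 ± 0.20 SE), and SNF against WCH gave -0.40, which did not pass. Rab9b (chrX:136858147-136868755, - strand), whose relative Rab9 serves return traffic from late endosomes to the Golgi, had 17.5, 18.4 and 13.6 CPM in SynapTRAP, 15.3, 15.7 and 18.97 CPM in SNF, 49.01, 29.6 and 46.1 CPM in TRAP, and 33.7, 36.5 and 29.8 CPM in WCH. The 6 band libraries lay at 13.6 to 18.97 CPM and the 6 cortex libraries at 29.6 to 49.01 CPM, which passed in SNF against WCH (edgeR adjusted p = 0.0029 for a log2 fold change of -1.0 ± 0.24 SE) and in SynapTRAP against TRAP (edgeR adjusted p = 0.000153 for a log2 fold change of -1.33 ± 0.24 SE). Rab24 (chr13:55319743-55321946, - strand), linked to autophagy, had 7.54, 8.50 and 15.5 CPM in SynapTRAP, 6.33, 13.03 and 11.7 CPM in SNF, 23.3, 36.3 and 16.7 CPM in TRAP, and 12.7, 20.3 and 14.4 CPM in WCH. All SynapTRAP libraries lay below all TRAP libraries, while SNF and WCH overlapped. SynapTRAP was below TRAP (edgeR adjusted p = 0.0034 for a log2 fold change of -1.30 ± 0.33 SE), with the overlap with Prelid1 as a limit. Rab12 (22.8 to 61.2 CPM) was below WCH in SNF and below TRAP in SynapTRAP. Rab9 (10.5 to 16.7 CPM) passed in no comparison, nor did Rab7b, Rab29 and Rab32, which ranged over 0 to 2.66 CPM.

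Rab6b (chr9:103111787-103185276, + strand), the form of the Golgi Rab6 that is enriched in brain, had 999.5, 741 and 1407 CPM in SynapTRAP, 782, 677 and 849.7 CPM in SNF, 871, 990.4 and 1324 CPM in TRAP, and 1044, 1084 and 1025 CPM in WCH. Its libraries overlapped between SynapTRAP, TRAP and WCH, SynapTRAP replicate 3 and TRAP replicate 3 were the highest of all, and SNF lay below WCH at a log2 fold change of -0.45, with no comparison passing. Rab6a (chr7:100607410-100641268, + strand), the broadly expressed form, had 159, 137 and 156 CPM in SynapTRAP, 165, 136 and 219 CPM in SNF, 304, 281 and 199 CPM in TRAP, and 322, 338 and 386 CPM in WCH. It fell in SNF against WCH (edgeR adjusted p = 0.00195 for a log2 fold change of -1.01 ± 0.23 SE) and in SynapTRAP against TRAP (edgeR adjusted p = 0.00958 for a log2 fold change of -0.80 ± 0.23 SE), with no overlap in either. The log2 ratio of Rab6b over Rab6a was 2.75 ± 0.38 in SynapTRAP, 2.17 ± 0.19 in SNF, 2.02 ± 0.63 in TRAP and 1.60 ± 0.16 in WCH (SD, n = 3 each). Rab1a (chr11:20201432-20226856, + strand), which directs transport to the Golgi, had 116, 109 and 84.3 CPM in SynapTRAP, 88.6, 80.8 and 125 CPM in SNF, 158, 129.9 and 136 CPM in TRAP, and 145, 156 and 141 CPM in WCH. It was lower in SNF than in WCH (edgeR adjusted p = 0.0421 for a log2 fold change of -0.58 ± 0.22 SE), and the TRAP and WCH libraries overlapped. Rab1b, its paralogue, had 51.8, 41.4 and 41.4 CPM in SynapTRAP, 27.6, 26.3 and 27.5 CPM in SNF, 62.7, 62.4 and 54.4 CPM in TRAP, and 38.4, 31.97 and 25.5 CPM in WCH. For Rab1b TRAP was above WCH (edgeR adjusted p = 0.00457 for a log2 fold change of 0.90 ± 0.21 SE), while Rab1a gave -0.06 in that comparison, and the log2 ratio of Rab1b over Rab1a was -1.24 ± 0.15 in TRAP and -2.22 ± 0.28 in WCH (SD, n = 3 each). It was -1.20 ± 0.19 in SynapTRAP and -1.83 ± 0.31 in SNF, so the ratio was higher in both pull-downs than in the material each was made from, in every library.

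Rab33a (chrX:48519285-48530232, + strand), a Golgi Rab with a role in axonal vesicle transport, had 9.06, 10.2 and 8.55 CPM in SynapTRAP, 7.77, 7.71 and 3.89 CPM in SNF, 21.2, 22.1 and 22.3 CPM in TRAP, and 12.4, 9.93 and 12.5 CPM in WCH. TRAP lay above all other libraries, SNF below all others, and SynapTRAP and WCH overlapped. SynapTRAP was below TRAP (edgeR adjusted p = 0.000734 for a log2 fold change of -1.23 ± 0.26 SE), SNF was below WCH (edgeR adjusted p = 0.0222 for a log2 fold change of -0.85 ± 0.28 SE), and TRAP was above WCH (edgeR adjusted p = 0.0128 for a log2 fold change of 0.91 ± 0.25 SE). Rab18 (chr18:6733905-6794429, + strand), found on the endoplasmic reticulum and lipid droplets, had 27.2, 20.5 and 26.5 CPM in SynapTRAP, 27.9, 21.3 and 40.6 CPM in SNF, 32.97, 29.2 and 16.4 CPM in TRAP, and 44.5, 53.6 and 58.6 CPM in WCH. WCH was highest in all libraries, above TRAP (edgeR adjusted p = 0.0105 for a log2 fold change of -0.99 ± 0.27 SE) and above SNF (edgeR adjusted p = 0.0244 for a log2 fold change of -0.80 ± 0.27 SE). Rab2a and Rab2b, which act between endoplasmic reticulum and Golgi, ranged over 83.2 to 181 CPM and 14.8 to 45.01 CPM, and both were lower in SNF than in WCH and lower in SynapTRAP than in TRAP. Rab30, Rab33b and Rab43 ranged over 3.37 to 23.4 CPM. Rab10 (chr12:3247428-3309969, - strand), which delivers membrane to the growing axon and the plasma membrane, had 77.4, 91.4 and 86.1 CPM in SynapTRAP, 91.8, 85.4 and 102 CPM in SNF, 67.4, 70.7 and 62.01 CPM in TRAP, and 83.5, 89.1 and 92.7 CPM in WCH. Its TRAP libraries were lower than the other 9, at a log2 fold change of -0.41 against WCH that did not pass (edgeR adjusted p = 0.139). The other post-Golgi and cilia genes (Rab8a, Rab8b, Rab13, Rab23, Rab28 and Rab34) ranged over 0.304 to 25.5 CPM.

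**Figure D3:**
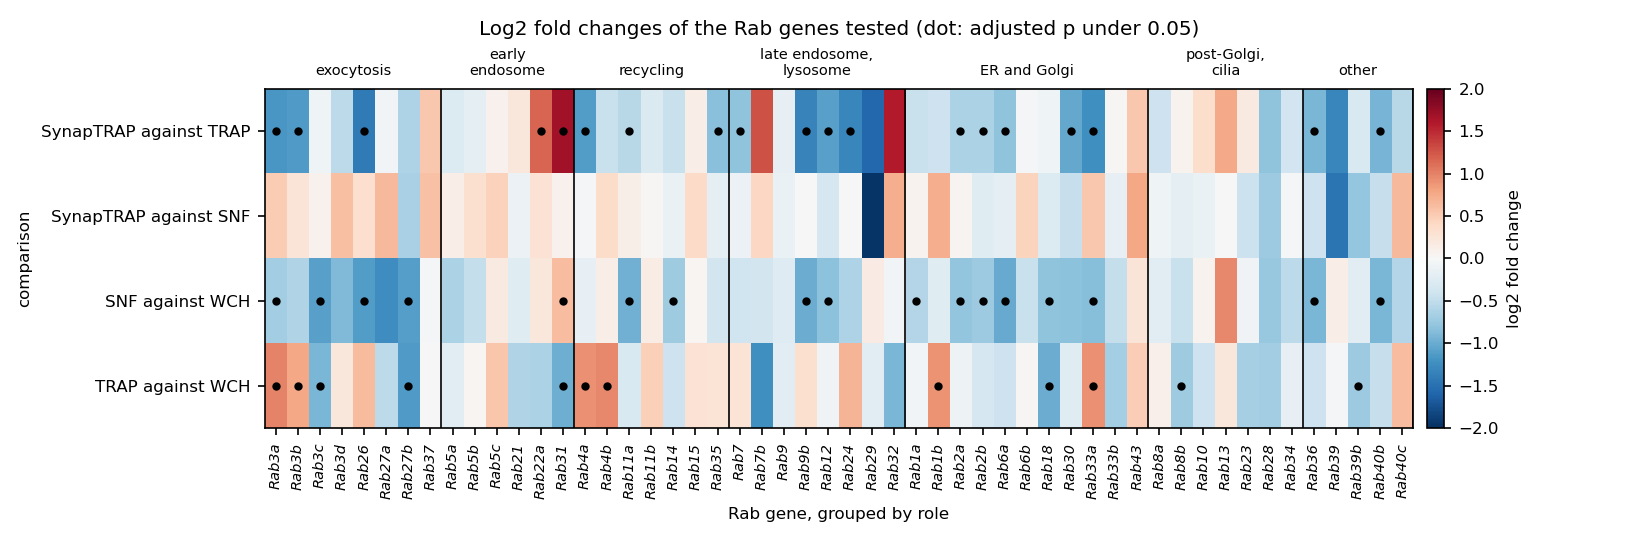
Log2 fold changes (colour) of the 52 Rab genes tested, grouped by role along the x axis, in the 4 comparisons along the y axis, with a dot where the edgeR adjusted p was under 0.05. SynapTRAP against TRAP and SNF against WCH are mostly blue, SynapTRAP against SNF has no dot, and TRAP against WCH has as many dots on red as on blue.

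The pull-down from whole cortex changed 12 of the 52 Rab genes tested, in both directions. In TRAP against WCH, which asks which transcripts tagged neuronal ribosomes carry, Rab3a, Rab4b, Rab4a, Rab33a, Rab1b and Rab3b rose (log2 fold changes 0.99, 0.96, 0.92, 0.91, 0.90 and 0.78). Rab27b, Rab18, Rab31, Rab3c, Rab39b and Rab8b fell (-1.13, -0.99, -0.98, -0.91, -0.72 and -0.71). These were 6 of 52 in each direction (11.5%), beside 11.1% of all 13404 genes tested higher and 10.9% lower, so the shares were near those of all genes. The median over the members was -0.13 and over all genes -0.01. With scaling to counts outside the mitochondrial genome 5 members rose and 7 fell, and the genes higher made up 35.4% of all calls in place of 50.5%. By role, 2 of 8 exocytosis genes rose and 2 fell, 2 of 7 recycling genes rose, 2 of 11 genes of the endoplasmic reticulum and Golgi rose and 1 fell, and 1 early endosome, 1 post-Golgi and 1 other gene fell. None of the 8 late endosome genes tested passed. The 6 that rose include genes for vesicles (Rab3a, Rab3b), recycling (Rab4a, Rab4b) and the Golgi (Rab1b, Rab33a). In this comparison 5 of 12 neuron markers rose and none fell, while 6 of 10 markers fell on the astrocyte list, 6 of 10 on the oligodendrocyte list and 4 of 10 on that of microglia, and none rose, and their part in the Rab results was not tested. Rab4a, Rab1b, Rab3c, Rab27b and Rab31 passed without any 1 of the 6 libraries. Rab18 was not called without TRAP replicate 3 (-0.71) or WCH replicate 3 (-0.90). Rab3a was not called without WCH replicate 2 (0.96). Rab4b was not called without WCH replicate 2 (0.95). Rab33a was not called without WCH replicate 2 (0.81). Rab3b was not called without TRAP replicate 3 (0.60) or WCH replicate 1, 2 or 3 (0.87, 0.72 and 0.79) and with scaling to counts outside the mitochondrial genome (0.63). Rab39b was not called without TRAP replicate 3 (-0.54) or WCH replicate 1, 2 or 3 (-0.73, -0.70 and -0.69). Rab8b was not called without TRAP replicate 1 or 2 (-0.60 and -0.67) or WCH replicate 1 or 2 (-0.62 and -0.68) and with no filter on low counts (-0.71). Without WCH replicate 2, 2 members rose in place of 6, and without TRAP replicate 3 there were 5 higher and 4 lower. Over all genes tested 652 rose without WCH replicate 2, in place of 1488. Without TRAP replicate 3, 969 rose and 969 fell over all genes.

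The members that rose and those that fell in TRAP differed in length, a property the choice of members did not use. The main transcripts of the 6 that rose were 1158 to 3327 bases long (median 1487.5), those of the 6 that fell 3401 to 8444 bases (median 5624), and those of the other 40 had a median of 2938.5 bases. Rab33a (1158 bases), Rab4b (1192) and Rab4a (1419) were among the shortest, and Rab3c (8444), Rab27b (6891) and Rab18 (6515) among the longest. The 3′ untranslated regions carried most of this, with 131 to 2514 bases in the 6 that rose and 2538 to 7631 bases in the 6 that fell. Over the 52 members, Spearman's rho between exon length and log2 fold change was -0.47, beside -0.25 over the 12927 protein-coding genes tested. In SynapTRAP against TRAP, which shares the TRAP libraries, rho was 0.39 over the members and 0.23 over all. In SNF against WCH it was -0.13 and -0.01, and in SynapTRAP against SNF -0.10 and 0.07. These are descriptions across genes, which share libraries and are not independent replicates, and the TRAP libraries also differed from the others in mitochondrial share, as given above.

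**Figure D4:**
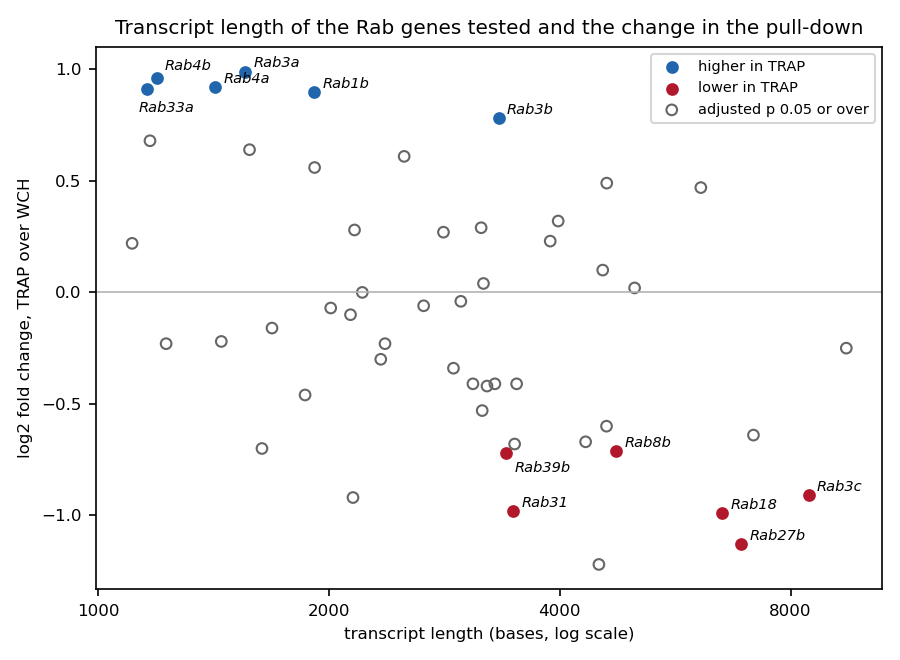
Length of the main transcript (x axis, bases, log scale) and log2 fold change of TRAP over WCH (y axis) of the 52 Rab genes tested, with filled points for genes with an adjusted p under 0.05. The 6 genes higher in TRAP have transcripts of 1158 to 3327 bases and the 6 lower ones 3401 to 8444 bases.

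For many members the synaptic band held a smaller share of mRNA than the homogenate. In SNF against WCH, 16 of 52 members fell (30.8%), beside 16.5% of all genes tested, and 1 rose (1.92%), beside 20.6% of all genes. The 16 were Rab26 (-1.11), Rab27b (-1.10), Rab3c (-1.08), Rab6a (-1.01), Rab9b (-1.0), Rab11a (-0.96), Rab40b (-0.92), Rab36 (-0.91), Rab33a (-0.85), Rab12 (-0.82), Rab18 (-0.80), Rab2a (-0.79), Rab2b (-0.73), Rab14 (-0.71), Rab3a (-0.69) and Rab1a (-0.58), on the log2 scale. The 1 that rose was Rab31 (0.61). By role, 4 of 8 exocytosis genes and 6 of 11 genes of the endoplasmic reticulum and Golgi fell, as did 2 of 7 recycling, 2 of 8 late endosome and 2 of 5 other genes, and none of the early endosome and post-Golgi genes. Rab28, of the post-Golgi group, gave -0.76 and was called lower with no filter on low counts (-0.80) and in a fit of both groups alone (-0.63). The early endosome genes had a median log2 fold change of -0.03 and the exocytosis genes one of -0.98. All 10 astrocyte and all 10 microglia markers and 6 of 10 oligodendrocyte markers rose in the same comparison, and 3 of 12 neuron markers fell while 2 rose, and their part in the Rab results was not tested.

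The number of Rab genes that fell in SNF depends on the scaling. The median of all genes tested was -0.25 and that of the members -0.48, which is 0.23 lower. With relative log expression scaling the all-gene median was -0.12, the members stood 0.23 below it, and 10 fell while 1 rose. With scaling to counts outside the mitochondrial genome the all-gene median was -0.63, the members stood 0.24 below it, and 31 fell while none rose. The genes higher made up 55.5% of all calls in the comparison, 67.7% with relative log expression scaling and 29.9% with scaling to counts outside the mitochondrial genome. Rab3c, Rab27b, Rab6a, Rab9b, Rab11a, Rab12 and Rab2a passed without any 1 of the 6 libraries. Rab26 was not called without WCH replicate 1 (-0.87). Rab40b was not called without SNF replicate 1 or 2 (-0.88 and -0.92) or WCH replicate 3 (-0.64). Rab36 was not called without SNF replicate 2 or 3 (-0.63 and -1.02) or WCH replicate 1, 2 or 3 (-0.66, -0.97 and -1.0) and with relative log expression scaling (-0.79) or DESeq2 (-0.79). Rab33a was not called without SNF replicate 3 (-0.59) or WCH replicate 1 or 3 (-0.69 and -0.80) and with relative log expression scaling (-0.72) or DESeq2 (-0.72). Rab18 was not called without SNF replicate 1 or 2 (-0.76 and -0.61) or WCH replicate 1, 2 or 3 (-0.80, -0.79 and -0.71) and with relative log expression scaling (-0.68). Rab2b was not called without SNF replicate 1 or 2 (-0.68 and -0.71) or WCH replicate 1 or 2 (-0.66 and -0.65) and with relative log expression scaling (-0.60). Rab14 was not called without SNF replicate 2 (-0.65) or WCH replicate 1 or 3 (-0.61 and -0.64). Rab3a was not called without SNF replicate 1, 2 or 3 (-0.75, -0.83 and -0.51) or WCH replicate 1, 2 or 3 (-0.53, -0.72 and -0.71) and with relative log expression scaling (-0.55) or DESeq2 (-0.55). Rab31 was not called without SNF replicate 1, 2 or 3 (0.55, 0.66 and 0.63) or WCH replicate 1, 2 or 3 (0.67, 0.62 and 0.65) and with scaling to counts outside the mitochondrial genome (0.22) or no filter on low counts (0.58). Rab1a was not called without SNF replicate 1 or 2 (-0.52 and -0.46) or WCH replicate 1, 2 or 3 (-0.49, -0.55 and -0.62) and with relative log expression scaling (-0.46), no filter on low counts (-0.62) or DESeq2 (-0.46). The number of members that fell was 8 without WCH replicate 1, 9 without WCH replicate 3 and 9 without SNF replicate 2. Over all genes tested 970, 1423 and 1148 fell in this order, in place of 2209.

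Between the tagged ribosomes of the band and those of whole cortex, most Rab genes that passed were again lower in the synaptic preparation. In SynapTRAP against TRAP, 17 of 52 members fell (32.7%), beside 18.1% of all genes tested, and 2 rose (3.85%), beside 21.6% of all genes. The 2 that rose were Rab31 (1.68) and Rab22a (1.16), both of early endosomes. The 17 that fell were Rab26 (-1.42), Rab9b (-1.33), Rab24 (-1.30), Rab33a (-1.23), Rab3a (-1.17), Rab3b (-1.13), Rab4a (-1.12), Rab12 (-1.09), Rab30 (-1.02), Rab40b (-0.93), Rab36 (-0.91), Rab35 (-0.83), Rab6a (-0.80), Rab7 (-0.80), Rab2a (-0.64), Rab2b (-0.63) and Rab11a (-0.55), on the log2 scale. By role, 3 of 8 exocytosis, 3 of 7 recycling, 4 of 8 late endosome, 5 of 11 endoplasmic reticulum and Golgi and 2 of 5 other genes fell, and no post-Golgi gene passed. With the replicate number as a block the post-Golgi gene Rab28 was called lower (-0.87, against -0.80 without the block). The median was -0.43 over the members and -0.02 over all genes. With scaling to counts outside the mitochondrial genome the all-gene median was -0.30 and that of the members -0.72, and 24 members fell while 2 rose, and the genes higher made up 36.5% of all calls in place of 54.4%. All 10 astrocyte, all 10 microglia and 8 of 10 oligodendrocyte markers rose in this comparison and 5 of 12 neuron markers fell while 2 rose, and their part in the Rab results was not tested. Rab30 was not called without TRAP replicate 2 (-0.81) and with a fit of both groups alone (-0.97). Rab36 was not called without SynapTRAP replicate 1 or 2 (-0.77 and -0.76) or TRAP replicate 2 or 3 (-0.90 and -0.73) and with a fit of both groups alone (-0.85). Rab35 was not called with a fit of both groups alone (-0.78). Rab6a was not called with a fit of both groups alone (-0.74). Rab2a was not called without TRAP replicate 1 (-0.52) and with a fit of both groups alone (-0.58). Rab2b was not called without SynapTRAP replicate 1 (-0.46) or TRAP replicate 1 or 2 (-0.61 and -0.61) and with a fit of both groups alone (-0.57). Rab11a was not called without SynapTRAP replicate 1, 2 or 3 (-0.56, -0.62 and -0.52) or TRAP replicate 1 (-0.42) and with no filter on low counts (-0.57) or a fit of both groups alone (-0.50). Rab36 was called although its libraries overlapped between the groups. A fit of both groups alone called 10 lower, beside 1458 of all 12582 genes tested, in place of 2432 of 13404. Without SynapTRAP replicate 3, 19 members fell and 3 rose. Over all genes tested 2642 fell and 2971 rose without that library, in place of 2432 and 2899.

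SNF against WCH and SynapTRAP against TRAP share no library, though same-numbered SNF and SynapTRAP libraries varied together. Of the 16 members that fell in SNF, 11 (68.8%) also fell in SynapTRAP, which is 64.7% of the 17 there, and over all genes the shares were 46.0% and 41.8%. These shares do not rest on the same base. Among the members 30.8% fell in SNF and 32.7% in SynapTRAP, beside 16.5% and 18.1% of all genes. A higher overlap of the members therefore does not show that they agree more between the comparisons than other genes. The 11 were Rab26, Rab9b, Rab33a, Rab3a, Rab12, Rab40b, Rab36, Rab6a, Rab2a, Rab2b and Rab11a. Rab31 rose in both, and no member passed in opposite directions, against 16 genes of all tested that did. Across the 52 members the log2 fold changes of both comparisons had a Pearson r of 0.54 and a Spearman rho of 0.51, beside 0.67 and 0.67 over all genes, as a description across genes. Rab3c and Rab27b fell in SNF and gave -0.09 and -0.62 in SynapTRAP against TRAP, and neither value passed. Rab24, Rab3b, Rab4a, Rab30, Rab35 and Rab7 fell in SynapTRAP against TRAP and gave -0.61, -0.60, -0.16, -0.82, -0.36 and -0.40 in SNF against WCH. With scaling to counts outside the mitochondrial genome all of these but Rab4a were called lower in SNF, as were 4850 of all genes. Rab27b was called lower in SynapTRAP against TRAP with that scaling (-0.94). Without TRAP replicate 3 (-0.89) or SynapTRAP replicate 3 (-0.80) it was called too.

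**Figure D5:**
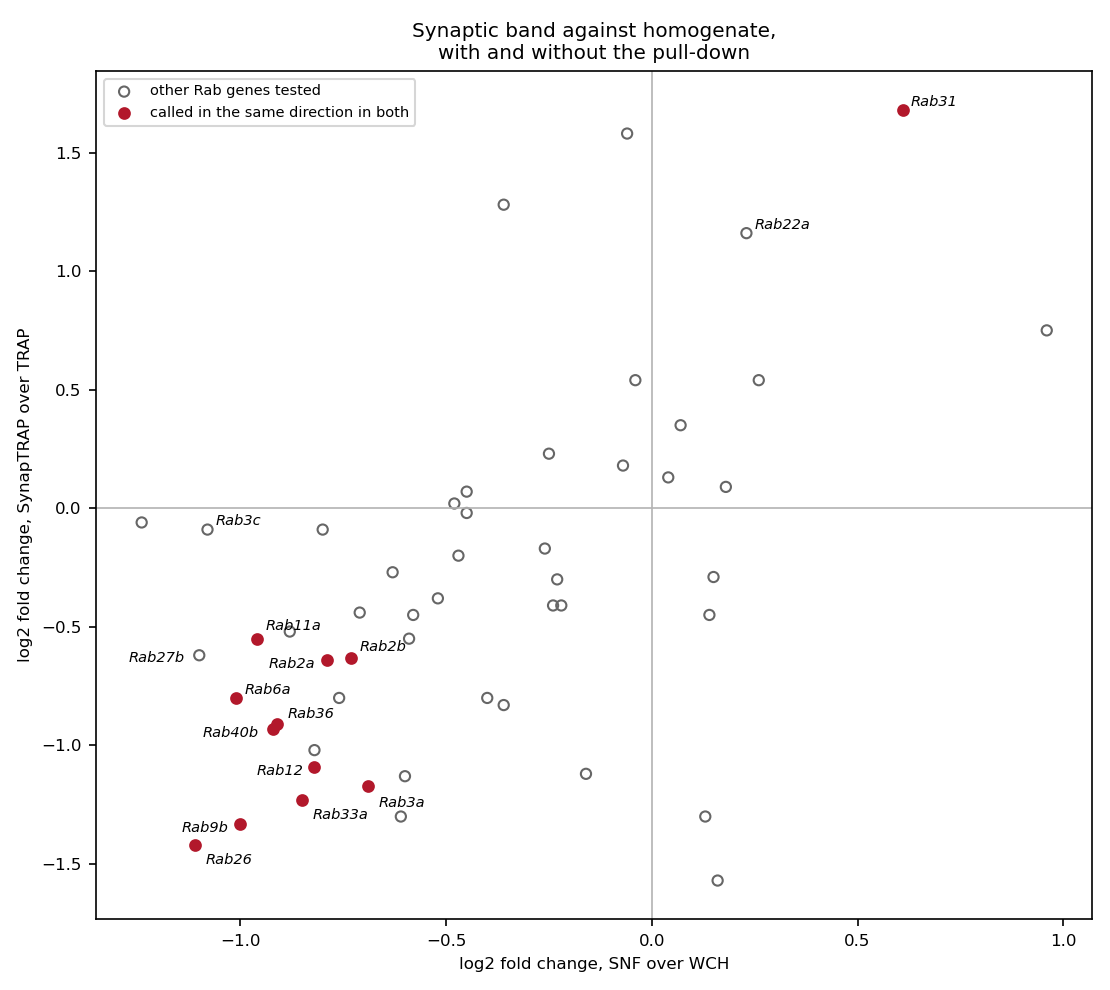
Log2 fold change of SNF over WCH (x axis) and of SynapTRAP over TRAP (y axis) of the 52 Rab genes tested, with red points for the 12 genes that passed in the same direction in both. Of these, 11 lie at the lower left and Rab31 alone at the upper right.

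No Rab gene was called between the tagged ribosomes of the band and the band itself. In SynapTRAP against SNF, 0 of 52 members passed the edgeR test in either direction, beside 2.29% of all genes higher and 1.79% lower. The unadjusted edgeR p was under 0.05 for 7 of 52 members, beside 2623 of all 13404 genes tested. The nearest were Rab39b (edgeR adjusted p = 0.0527 for a log2 fold change of -0.78 ± 0.23 SE), a Rab linked to intellectual disability in humans, and Rab1b (edgeR adjusted p = 0.0601 for a log2 fold change of 0.73 ± 0.22 SE). Rab39b had 22.6, 32.9 and 21.97 CPM in SynapTRAP, 40.3, 42.8 and 50.6 CPM in SNF, 35.8, 34.7 and 24.9 CPM in TRAP, and 48.9, 53.8 and 54.6 CPM in WCH, with all SynapTRAP libraries below all SNF libraries. For Rab1b the SynapTRAP libraries all exceeded the SNF libraries. DESeq2 and relative log expression scaling in edgeR each called Rab39b lower (-0.89 in both). With the replicate number as a block, Rab1b was called higher (0.71) and Rab39b lower (-0.80), and same-numbered libraries of these groups did vary together. Without SynapTRAP replicate 2, Rab1b (0.79) and Rab39b (-1.0) were called. Without SynapTRAP replicate 3, Rab1b (0.78) and Rab3a (0.81) were called higher and Rab28 (-1.16) lower. The members' median was 0.00 and that of all genes 0.03. Over all genes the higher ones made up 56.1% of the calls, and 33.6% with relative log expression scaling. The authors' deposited table of 109 candidates for local translation holds no Rab gene.

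The effect of the pull-down was also compared between the band and the homogenate (SynapTRAP minus SNF, less TRAP minus WCH). For the Rab genes 0 of 52 passed the edgeR test in either direction, beside 0.507% of all genes higher and 0.358% lower. The unadjusted edgeR p was under 0.05 for 4 of 52 members, beside 2319 of all 13404 genes tested. The smallest p-values were those of Rab3c (edgeR adjusted p = 0.0964 for a log2 fold change of 0.99 ± 0.29 SE), Rab31 (edgeR adjusted p = 0.107 for a log2 fold change of 1.07 ± 0.34 SE) and Rab4a (edgeR adjusted p = 0.13 for a log2 fold change of -0.95 ± 0.32 SE). DESeq2 called Rab3c higher (0.86) and Rab4a lower (-1.09). Over all genes the higher ones made up 58.6% of the calls, 33.6% with relative log expression scaling and 73.7% with scaling to counts outside the mitochondrial genome. Rab3c and Rab4a are also among those that changed most in TRAP against WCH, which is part of this contrast.

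The patterns of single genes over the 12 libraries were set against Rab3a. The 5 genes of all tested with the highest Pearson correlation of log2 CPM were Gars (0.986), Trim32 (0.977), Copg1 (0.969), Cygb (0.966) and Snap47 (0.964), as a description over 12 libraries in 4 groups. Among Rab genes Rab3b (0.95) and Rab33a (0.92) came closest, ahead of Rab4a (0.82), Rab7 (0.80) and Rab4b (0.80), and Rab31 lay at the other end, at -0.91, next to Rab22a and Rab10 at -0.85 each.

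Genes that control Rab proteins were counted from 4 lists of carriers and prenylation enzymes, exchange factors, GTPase-activating proteins and effectors, with 103 of 110 tested. In TRAP against WCH 18 rose and 16 fell, in SNF against WCH 4 rose and 27 fell, in SynapTRAP against SNF 4 rose and none fell, and in SynapTRAP against TRAP 18 rose and 16 fell. Over all genes tested the shares higher and lower were 11.1% and 10.9%, 20.6% and 16.5%, 2.29% and 1.79%, and 21.6% and 18.1% in this order of comparisons. With scaling to counts outside the mitochondrial genome, 9 list genes rose in TRAP against WCH, 49 fell in SNF against WCH, and 11 rose and 30 fell in SynapTRAP against TRAP. With relative log expression scaling 14 fell in SNF against WCH. The medians over these lists were 0.09, -0.37, 0.26 and -0.18 in this order, beside -0.01, -0.25, 0.03 and -0.02 over all genes. Rph3a, which encodes the Rab3 effector rabphilin, had 371, 379.6 and 494 CPM in SynapTRAP, 235, 272 and 242 CPM in SNF, 360.3, 323 and 512 CPM in TRAP, and 199, 222 and 223 CPM in WCH. TRAP exceeded WCH (edgeR adjusted p = 0.00848 for a log2 fold change of 0.89 ± 0.23 SE), all SynapTRAP libraries exceeded all SNF libraries at a log2 fold change of 0.73 that did not pass, and SynapTRAP and TRAP overlapped.

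Rph3a was not among the genes called lower in the band, unlike Rab3a. For Rph3a SynapTRAP against TRAP gave 0.06 and SNF against WCH 0.22, where Rab3a gave -1.17 and -0.69, and the difference between these genes was not tested. Among the called list genes in TRAP against WCH, the effector gene Mical1 (1.98) and the GTPase-activating protein genes Tbc1d25 (1.19) and Tbc1d22a (1.08) rose most, and Tbc1d12 (-1.65), also of that family, and the exchange factor genes Dennd1b (-1.44) and Dennd4c (-1.37) fell most. Mical1 stood at a mean of only 4.0 CPM in TRAP and 1.02 CPM in WCH. It was not called without TRAP replicate 3 (0.59) or WCH replicate 1 or 2 (1.72 and 1.94). With a fit of both groups alone (2.02) it was not called either. Tbc1d25 was not called without TRAP replicate 1 or 3 (1.19 and 1.12) or WCH replicate 1 or 3 (1.17 and 1.03).

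In SNF against WCH the effectors made up 12 of the 27 list genes that fell, out of 32 effectors tested, beside 16.5% of all genes lower. With relative log expression scaling 6 of these 12 were not called, namely Ocrl (-0.50), Rufy3 (-0.48), Rilpl1 (-0.55), Eea1 (-0.49), Bicd2 (-0.62) and Ehbp1 (-0.61). Rabac1 (1.52), whose product helps Rab proteins onto membranes, Tbc1d9b (1.34) and the effector gene Sytl5 (1.18) rose most, and Hps1 (-1.94), part of an exchange factor, Sytl2 (-1.19) and Rabif (-1.15) fell most. Hps1 stood at a mean of only 0.531 CPM in SNF and 2.06 CPM in WCH, so its place rests on low counts. Some of these calls were lost when 1 library was left out. Sytl5 was not called without SNF replicate 1, 2 or 3 (1.11, 1.27 and 1.15) or WCH replicate 2 or 3 (1.18 and 0.96) and with scaling to counts outside the mitochondrial genome (0.79). Hps1 was not called without SNF replicate 1, 2 or 3 (-2.0, -1.94 and -1.88) or WCH replicate 1, 2 or 3 (-1.98, -1.83 and -1.89) and with relative log expression scaling (-1.81), no filter on low counts (-1.97) or DESeq2 (-1.83), and Rabif was not called without SNF replicate 2 (-0.86). In SynapTRAP against SNF the genes that rose were Sgsm2 (1.24) and Tbc1d16 (1.10), of GTPase-activating proteins, and Dennd4b (1.05) and Sbf1 (0.99), of the exchange factor family. Sgsm2 was not called without SynapTRAP replicate 1 or 3 (1.12 and 0.96) or SNF replicate 1, 2 or 3 (1.33, 1.23 and 1.18). Tbc1d16 was not called without SynapTRAP replicate 1 or 3 (0.87 and 0.88) or SNF replicate 1, 2 or 3 (1.11, 1.20 and 1.02) and with relative log expression scaling (0.99) or a fit of both groups alone (1.04). Dennd4b was not called without SynapTRAP replicate 1 or 3 (0.82 and 0.92) or SNF replicate 1, 2 or 3 (1.21, 0.96 and 0.99) and with a fit of both groups alone (0.99). Sbf1 was not called without SynapTRAP replicate 1 (0.76) or SNF replicate 1, 2 or 3 (1.0, 0.97 and 1.0) and with a fit of both groups alone (0.93). Without SNF replicate 1, 2 or 3 or SynapTRAP replicate 1, no list gene rose in this comparison, without SynapTRAP replicate 3 there were 2, and without SynapTRAP replicate 2 there were 10. Over all genes tested 86, 35, 24, 19, 360 and 499 rose in this order of libraries left out, in place of 307. Sgsm2, Tbc1d16 and Dennd4b are in the authors' deposited table of candidates for local translation. That table belongs to this same series, so it is no independent evidence. Its false discovery rates by TRAP for these genes were 0.184, 0.261 and 0.168. By column they were 0.034, 0.0435 and 0.0542.

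In SynapTRAP against TRAP the exchange factor genes Rin3 (2.42), Rin2 (2.23) and Dennd4c (2.06) rose most, the Rin genes being exchange factors for Rab5, and Rilpl2 (-2.03), Rab3ip (-1.86), an exchange factor for Rab8, and Rabif (-1.61) fell most. Rin3 stood at a mean of only 0.415 CPM in TRAP and 2.19 CPM in SynapTRAP, so its place rests on low counts. Between the pull-down effects of the band and the homogenate, Dennd4c was the 1 list gene called (1.79). It was not called without SynapTRAP replicate 1 (1.41), SNF replicate 1, 2 or 3 (1.72, 1.78 and 1.89), TRAP replicate 2 or 3 (1.61 and 1.67) or WCH replicate 1, 2 or 3 (1.51, 1.88 and 1.85) and with relative log expression scaling (1.66).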

How the data were processed

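RNA-seq was done on 12 libraries of mouse cortex in 4 groups of 3. The deposited files hold whole-number read counts per gene made by the authors, and the submitters' processing notes name STAR, Bowtie2, HTSeq and edgeR without versions. No source used here gives the genome build, annotation or strand setting behind the counts. The authors' deposited tables of selected genes hold log2 fold changes, likelihood ratio scores and p-values with false discovery rates, and values from them are named as theirs.

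Counts were tested with the quasi-likelihood test of edgeR 4.0.16 in R 4.3.3 (robust fit, TMM scaling, filterByExpr). All 12 libraries entered 1 fit of group means with 5 contrasts, and p-values were adjusted by Benjamini-Hochberg over the 13404 genes tested, with 0.05 as the threshold. CPM values use the same scaling, and log2 CPM has a prior count of 2. Rows that name no gene stayed out. They held 19.3% to 58.3% of all entries of a library's deposited counts, of which reads aligned to several places made up 14.4% to 28.9% of all entries. The gene counts were 4368881 to 14335089 per library, of which 8182 to 53282 were Rab counts, and this number limits the precision of the less abundant members. The script was tested on simulated data. Gene positions, transcript lengths and sequences are from GENCODE M21 on GRCm38, to which 28842 of 29879 identifiers matched.

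Full values by library were given for 10 Rab genes chosen by role and for the 4 called members with the largest change in each direction per comparison. For regulators the rule took Rph3a and the 3 called genes with the largest change in each direction, and a further gene it took is not reported here. Rab5c, Rab11a, Rab1b and Rab39b were added after their values were seen. The members and lists were chosen with earlier results of these data known. Alternatives were DESeq2 1.42.0, other scalings, no filter, removal of mitochondrial genes, a replicate block, a fit of both groups alone, and leaving out each library.

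Replicate numbers in the labels are shared by all groups. Deviations from the group means of same-numbered libraries had correlations of 0.218 to 0.378 between SynapTRAP and SNF. Between SynapTRAP and TRAP they were 0.104 to 0.144. They were lower in part between SNF and WCH (0.065 to 0.165) and between SNF and TRAP (0.02 to 0.101). The same holds for SynapTRAP and WCH (-0.004 to 0.16) and for TRAP and WCH (-0.015 to 0.063). The numbers were taken to pair the samples only in the fit with a replicate block. The main fit did not use them, so its p-values ignore any pairing.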

Additional observations from a re-analysis of the deposited data

How the results depend on the processing

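No Rab gene changed its direction while called under any alternative. In SNF against WCH, relative log expression scaling gave 10 lower in place of 16, scaling to counts outside the mitochondrial genome gave 31 lower and 0 higher, and no filter on low counts gave 0 higher. In SynapTRAP against SNF, relative log expression scaling and DESeq2 each gave 1 lower in place of 0, and the replicate block gave 1 higher and 1 lower. In SynapTRAP against TRAP a fit of both groups alone gave 10 lower in place of 17, and in the difference of the pull-down effects DESeq2 gave 1 higher and 1 lower in place of 0. Calls over all genes tested moved too. In SNF against WCH, 1415 genes fell with relative log expression scaling, in place of 2209. With scaling to counts outside the mitochondrial genome 4850 fell. In SynapTRAP against TRAP 1458 fell in a fit of both groups alone, in place of 2432. The cause of these changes was not tested.

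Leaving out 1 library gave 2 to 7 higher and 4 to 5 lower in TRAP against WCH, 0 higher and 8 to 15 lower in SNF against WCH, 0 to 2 higher and 0 to 1 lower in SynapTRAP against SNF, and 2 to 3 higher and 14 to 19 lower in SynapTRAP against TRAP. It gave 0 in both directions in the difference of the pull-down effects. Calls over all genes tested moved as well. They were 652 to 1550 higher and 832 to 1285 lower in TRAP against WCH. In SNF against WCH they were 2192 to 2666 higher and 970 to 1974 lower. In SynapTRAP against SNF they were 19 to 499 higher and 20 to 453 lower. In SynapTRAP against TRAP they were 2324 to 2971 higher and 1953 to 2642 lower. In the difference of the pull-down effects they were 0 to 241 higher and 0 to 298 lower.

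Counts for the regulators and effectors and medians of the members were recomputed under alternatives chosen after seeing the data. For the regulators and effectors, relative log expression scaling gave 14 lower in SNF against WCH, 1 lower in SynapTRAP against SNF and 0 higher in the difference of effects. Over all genes tested it gave 1415, 366 and 38 in this order, in place of 2209, 240 and 68. Scaling to counts outside the mitochondrial genome gave 9 higher in TRAP against WCH, 49 lower in SNF against WCH, and 11 higher and 30 lower in SynapTRAP against TRAP. All genes tested gave 974, 4850, 2071 and 3596 in this order, in place of 1488, 2209, 2899 and 2432. DESeq2 gave 14 lower, 1 lower in SynapTRAP against SNF, and 2 higher and 2 lower in the difference. Of all genes tested, 1502 were lower in SNF against WCH and 617 lower in SynapTRAP against SNF with DESeq2. In the difference 175 were higher and 390 lower, in place of 68 and 48. No filter gave 10 higher in SynapTRAP against SNF, and 3 higher and 2 lower in the difference. Among the 20380 genes tested without a filter, these numbers were 547, 310 and 202. They stood in place of 307, 68 and 48 among 13404. The replicate block gave 8 higher in SynapTRAP against SNF, and 2 higher and 1 lower in the difference. Over all genes the block gave 441, 217 and 149 in this order. A fit of both groups alone gave 9 higher in SNF against WCH, 2 higher in SynapTRAP against SNF and 9 lower in SynapTRAP against TRAP. For all genes tested it gave 3434, 140 and 1458 in this order, in place of 2757, 307 and 2432. Leaving out 1 library gave 4 to 15 higher and 10 to 15 lower in TRAP against WCH, 3 to 4 higher and 10 to 26 lower in SNF against WCH, 0 to 10 higher and 0 to 1 lower in SynapTRAP against SNF, 13 to 19 higher and 10 to 17 lower in SynapTRAP against TRAP, and 0 to 6 higher and 0 to 3 lower in the difference.

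The members' median was -0.35 with relative log expression scaling and with DESeq2, -0.87 with scaling to counts outside the mitochondrial genome and -0.59 without a filter in SNF against WCH. It was -0.10 with both relative log expression scaling and DESeq2 in SynapTRAP against SNF, -0.72 with scaling to counts outside the mitochondrial genome in SynapTRAP against TRAP, and -0.03 with relative log expression scaling and -0.04 with DESeq2 in the difference. Leaving out 1 library gave -0.21 to 0.02 in TRAP against WCH, -0.54 to -0.39 in SNF against WCH, -0.12 to 0.09 in SynapTRAP against SNF, -0.55 to -0.38 in SynapTRAP against TRAP and -0.08 to 0.19 in the difference.

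With the replicate number as a block, 7 members rose and 6 fell in TRAP against WCH, 1 rose and 17 fell in SNF against WCH, and 2 rose and 18 fell in SynapTRAP against TRAP. Calls over all genes tested increased as well. In TRAP against WCH 1653 genes rose and 1737 fell, in place of 1488 and 1459. In SNF against WCH the numbers were 2846 and 2470, in place of 2757 and 2209. In SynapTRAP against TRAP they were 3054 and 2545, in place of 2899 and 2432. The calls gained were Rab5c higher (0.57) in TRAP against WCH, and Rab28 lower in SNF against WCH (-0.78) and in SynapTRAP against TRAP (-0.87). SNF has the fewest counts outside the mitochondrial genome, 1819853 to 2111322, which limits what could be called for its less abundant genes.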
